A study of Danio rerio with 10 samples.

Results

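The keratin genes of zebrafish were followed in bulk RNA sequencing of rpgrip1l-/- and wild-type (WT) embryos at 2 and 5 days post fertilization (dpf). Members were the gene identifiers whose symbol starts with krt, in any case of letters and without the krtcap genes, together with cyt1, cyt1l, icn and icn2. This gave 24 members of 32057 genes, of which 20 carry the prefix krt. Of the remaining 4, cyt1 and cyt1l are keratins under older names, whereas icn and icn2 encode ictacalcins, calcium-binding proteins of the S100 family that are made in surface epithelium and are not keratins. A further identifier, listed as si:rp71-1n18.1 and named krt96 by RefSeq, was not counted as a member. Each of the 5 groups had 2 libraries, each from the poly(A) RNA of a pool of 30 to 35 whole embryos. At 2 dpf these were WT, rpgrip1l-/- with a normal-looking tail (normal) and rpgrip1l-/- with a curled-down tail (CDT). At 5 dpf they were WT and rpgrip1l-/- larvae, whose tail form the labels do not give. The mutant line carries an out-of-frame CRISPR/Cas9 mutation of rpgrip1l, a gene of the ciliary transition zone, and was made on the AB strain. The mutant embryos came from crosses of homozygous parents and WT from crosses of AB fish, so the parents differed with the genotype. The labels do not say whether the pools of a group came from separate clutches, and the p-values therefore measure only the spread between these pools.

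Keratins are the intermediate filament proteins of epithelial cells. An acidic type I keratin pairs with a basic type II keratin, and the pairs assemble into filaments that are anchored at desmosomes between cells and at hemidesmosomes on the basement membrane. The embryonic zebrafish skin and fin fold have a surface layer, the periderm, over a layer of basal keratinocytes. In zebrafish, krt4 (type II), cyt1 (type I) and cyt1l are abundant in the surface layer, and krt1-19e, also known as krtt1c19e, is used as a marker of basal keratinocytes. The krt5 promoter is used to label the skin, and krt8 and krt18 form the filament pair of simple epithelia.

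Each library held 9101264 to 17536165 counts on genes. The targeted gene, rpgrip1l (ENSDARG00000051754), had 18 to 36 counts in the 4 mutant libraries at 2 dpf against 20 and 26 in WT, and 11 and 24 counts in the mutants at 5 dpf against 21 and 22 in WT. It was not called in any comparison within an age (SE 0.37 to 0.45 on the log2 scale), so its level is no check of the labels. Levels below are in CPM, the counts divided by library sizes scaled by TMM, a method that sets most genes to no change. At 2 dpf the TMM factors were 0.815 and 0.840 in WT and 1.17 to 1.22 in the mutants. With library size alone in place of TMM, the median of all genes moved up by 0.45 on the log2 scale in CDT and in normal against WT, and by 0.10 both at 5 dpf and between the ages of WT. It moved by -0.42 in the interaction of genotype and age. A direction at 2 dpf is therefore given as robust only where it was called under TMM, upper quartile, DESeq2 and library size scaling alike. For a rise against WT this asks less than for a fall, since library size alone moves genes up. Differences were tested by the quasi-likelihood method of edgeR, adjusted over all genes after Benjamini and Hochberg, and called at an adjusted p under 0.05.

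The members took a large part of the messenger RNA of the embryos. Their summed counts were 7.55% and 7.98% of all gene counts in WT at 2 dpf, 7.13% and 6.58% in normal, and 6.89% and 6.78% in CDT. At 5 dpf they were 4.53% and 4.51% in WT and 5.11% and 5.33% in the mutants. The share was thus below WT in all 4 mutant libraries at 2 dpf and above WT in both at 5 dpf. These values are a description, since 2 libraries against 2 cannot reach p under 0.05 in an exact permutation test. The gene krt4 (ENSDARG00000017624) gave 53.8% to 55.4% of the summed counts at 2 dpf and 33.3% to 35.0% at 5 dpf. Counts were not divided by transcript length, so they do not rank the abundance of the transcripts. In pooled whole embryos, fewer cells of a type and less RNA per cell cannot be told apart.

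**Figure D1:**
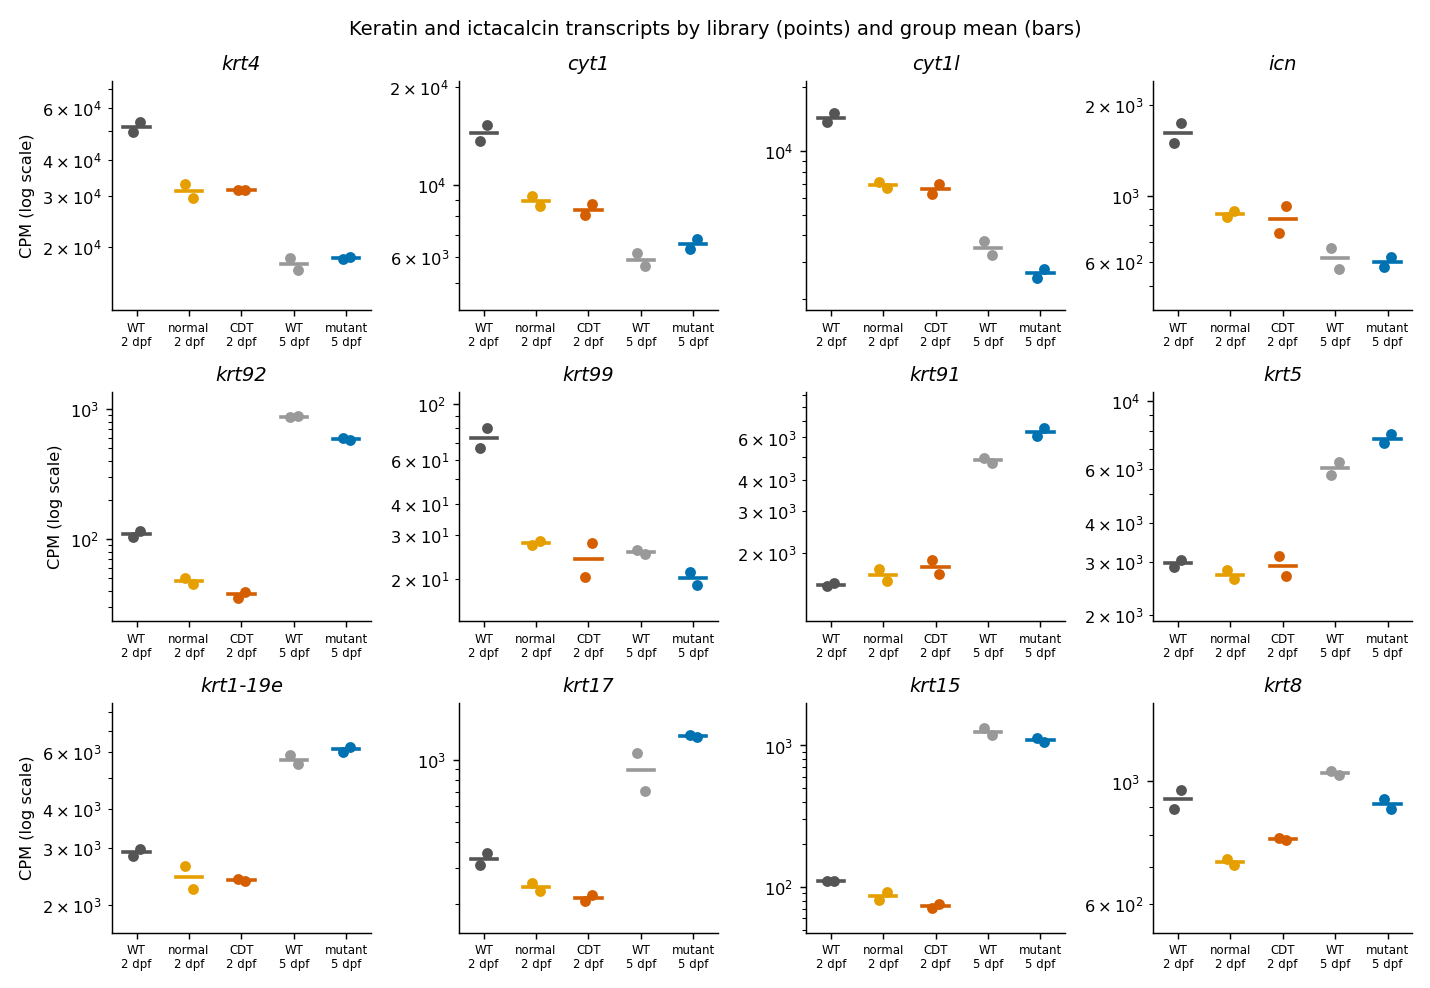
Levels of 12 members in CPM on a log axis, with 1 point per library, a bar at the mean of the 2 libraries, and groups along the x axis. At 2 dpf krt4, cyt1, cyt1l, icn, krt92 and krt99 lay below WT in all 4 mutant libraries, krt91 lay above WT in all 4, and krt5 overlapped with WT in CDT.

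At 2 dpf, 7 members were lower in both mutant groups than in WT under all 4 scalings. These were the surface keratins krt4, cyt1 and cyt1l, the ictacalcins icn and icn2, and krt92 and krt99, which were lower, by 1.53 to 2.89-fold under TMM. In the opposite direction, krt91 was higher under TMM in both and under all 4 scalings in CDT. Under all 4 scalings, 7 of 20 members were lower and 1 higher in CDT, where 4.62% of all genes tested were lower and 12.1% higher, and 9 of 20 were lower and 0 higher in normal, where 5.00% were lower and 12.2% higher. Of the genes of at least 100 CPM, 27.0% in CDT and 29.3% in normal were lower under all 4 scalings. Under TMM, of the 20 members tested at 2 dpf, 14 were lower and 1 was higher in CDT than in WT, where 20.4% of all genes tested were lower and 20.0% higher. In normal against WT, 15 of 20 were lower and 1 was higher, where 20.4% of all genes were lower and 19.2% higher. Library size alone gave 6 higher and 7 lower in CDT and 4 higher and 9 lower in normal. Many members are abundant, however, and of the 1207 genes of at least 100 CPM, 67.2% were lower in CDT and 64.5% in normal. The members' share of lower calls under TMM was close to that of abundant genes. Their median log2 fold change was -0.51 in CDT and -0.45 in normal, against -0.39 and -0.38 for genes of at least 100 CPM and 0.03 and 0.01 for all genes tested. Both comparisons use the same 2 WT libraries and are not independent. The members krt93, krt95, krt98 and krt18a.2 were below the filter on low counts at 2 dpf.

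The largest keratin transcript pool by counts, krt4, had 49821 and 53947 CPM in WT, 32942 and 29586 in normal, and 31363 and 31534 in CDT. All 4 mutant libraries lay below both WT libraries. It differed on the log2 scale by -0.65 (SE 0.07, adjusted p = 9.89e-10) in CDT and -0.66 (SE 0.07, adjusted p = 5.86e-10) in normal. The acidic surface keratin cyt1 (ENSDARG00000092947) had 13631 and 15217 CPM in WT, 9246 and 8633 in normal, and 8046 and 8710 in CDT, with log2 fold changes of -0.71 (SE 0.08) in CDT and -0.62 (SE 0.08) in normal. Its neighbour cyt1l (ENSDARG00000036832) fell further. It had 13689 and 15057 CPM in WT, 7116 and 6702 in normal, and 6298 and 6961 in CDT, which is 2.06-fold lower in CDT and 1.98-fold lower in normal. Within each library, where scaling plays no part, cyt1l gave 100.4 and 99.0 counts per 100 counts of cyt1 in WT, 77.0 and 77.6 in normal and 78.3 and 79.9 in CDT. This pair was chosen after its values were seen and carries no test. The cyt1 and cyt1l genes are close copies, and reads that matched both were not counted, so their split is uncertain.

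The members with the largest falls at 2 dpf were krt99 and krt92. The gene krt99 (ENSDARG00000019365) had 66.8 and 80.0 CPM in WT, 27.4 and 28.3 in normal, and 20.3 and 27.8 in CDT. Against WT, the log2 change was -1.53 (SE 0.11, adjusted p = 1.08e-15) in CDT and -1.32 (SE 0.11, adjusted p = 1.60e-13) in normal. For krt92 (ENSDARG00000036834) the levels were 103 and 116 CPM in WT, 49.7 and 45.2 in normal, and 35.4 and 39.4 in CDT. The 3 groups did not overlap, with log2 fold changes against WT of -1.47 (SE 0.10) in CDT and -1.13 (SE 0.09) in normal. The ictacalcin icn (ENSDARG00000009978) had 1492 and 1750 CPM in WT, 847 and 889 in normal, and 752 and 923 in CDT. The second ictacalcin, icn2 (ENSDARG00000055514), had 886 and 1059 CPM in WT, 550 and 590 in normal, and 484 and 576 in CDT. Both ictacalcins were below WT in every mutant library at 2 dpf, with log2 fold changes of -0.88 and -0.80 in CDT and of -0.83 and -0.70 in normal. They are similar in sequence, so the split of reads between them is also uncertain.

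**Figure D2:**
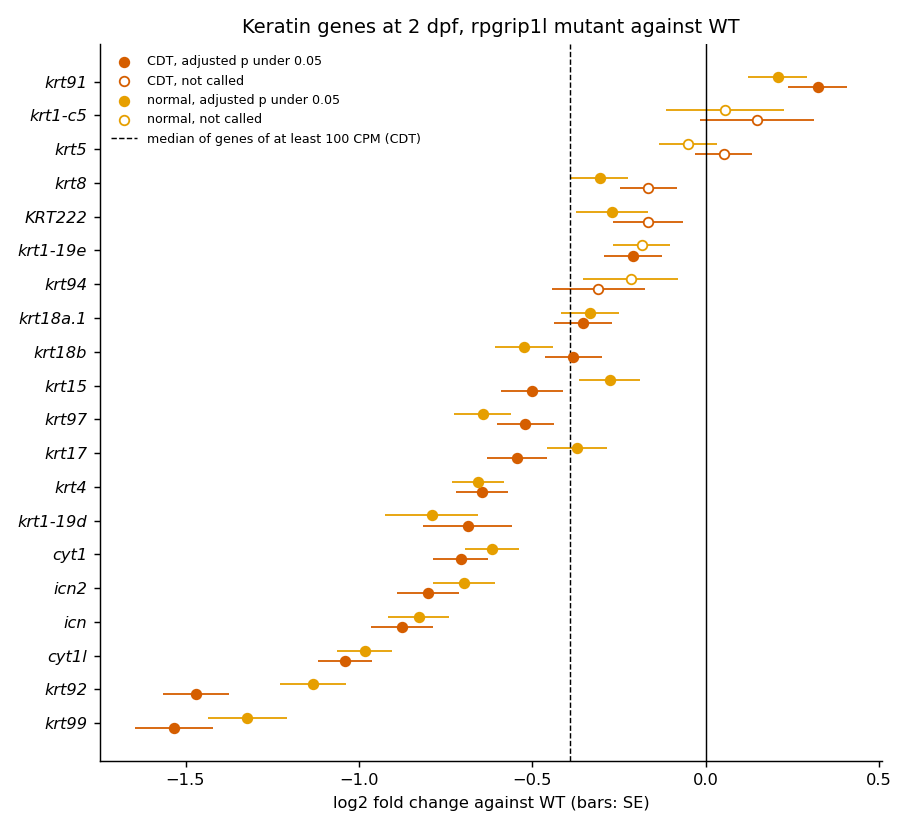
Log2 fold change against WT at 2 dpf for the 20 members tested, with bars of 1 SE, for CDT and normal. Filled points have an adjusted p under 0.05 and the dashed line is the CDT median of genes of at least 100 CPM (-0.39). The points run from -1.53 for krt99 to 0.32 for krt91, and library size alone in place of TMM moved the median of all genes in CDT up by 0.45.

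The gene krt91 (ENSDARG00000036830) was the member called higher at 2 dpf. It had 1471 and 1506 CPM in WT, 1729 and 1538 in normal, and 1885 and 1643 in CDT. On the log2 scale it differed from WT by 0.32 (SE 0.08, adjusted p = 0.00179) in CDT and 0.21 (SE 0.08, adjusted p = 0.0453) in normal. The call in CDT held under all 4 scalings and was lost without WT replicate 1 (adjusted p = 0.0533), and its log2 fold change was 0.21 without CDT replicate 1. The call in normal was lost with DESeq2 (adjusted p = 0.0832), in a fit of all 10 libraries (0.235) and without normal replicate 1 (0.444), WT replicate 1 (0.245) or WT replicate 2 (0.173). Within libraries, krt91 gave 2.95 and 2.79 counts per 100 counts of krt4 in WT, 5.25 and 5.20 in normal, and 6.01 and 5.21 in CDT. The ratio was above WT in all 4 mutant libraries. As krt4 itself was lower in the mutants, this ratio does not show a rise of krt91. Per 100 counts of krt4, krt5 likewise gave 5.80 and 5.63 counts in WT, 8.53 and 8.87 in normal, and 9.97 and 8.54 in CDT. These ratios were chosen after their values were seen and carry no test.

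No robust difference from WT was found at 2 dpf for krt5 or for the basal marker krt1-19e. The skin keratin krt5 (ENSDARG00000058371), the partner of KRT14 in basal keratinocytes of mammals, had 2888 and 3037 CPM in WT, 2811 and 2624 in normal, and 3127 and 2694 in CDT. The log2 change was 0.05 (SE 0.08, adjusted p = 0.650) in CDT and -0.05 (SE 0.08, adjusted p = 0.659) in normal. With library size alone krt5 was called higher in both, at 0.51 in CDT and 0.40 in normal. The gene krt1-19e (ENSDARG00000090268) had 2838 and 2994 CPM in WT, 2639 and 2238 in normal, and 2402 and 2380 in CDT. Its log2 fold change in CDT of -0.21 (SE 0.08, adjusted p = 0.0384) turned to 0.24 with library size alone, where it was called higher. The call under TMM was lost without WT replicate 1 (-0.25) or WT replicate 2 (-0.18). In normal it was not called under TMM (-0.18, SE 0.08, adjusted p = 0.0712), whereas library size alone called it higher (0.27).

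For several members the direction at 2 dpf depended on the scaling. The simple epithelial keratins krt18a.1 and krt18b (ENSDARG00000018404 and ENSDARG00000028618) were lower under TMM, with log2 fold changes of -0.35 and -0.38 in CDT and -0.33 and -0.52 in normal. With library size alone they were at 0.10 and 0.07 in CDT and at 0.12 and -0.07 in normal. Their partner krt8 (ENSDARG00000058358) had 891 and 967 CPM in WT, 724 and 705 in normal, and 789 and 782 in CDT. Under TMM krt8 was called in normal (-0.31, SE 0.08), where library size alone gave 0.15, and it was not called in CDT (-0.17, adjusted p = 0.102), where library size alone gave 0.29 and a call.

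The counts of krt18a.1 corresponded to 438 and 437 CPM in WT, 328 and 333 in normal, and 304 and 346 in CDT. Those of krt18b corresponded to 390 and 392 CPM in WT, 267 and 251 in normal, and 285 in each CDT library. On this scale the mutant libraries lay below WT for both genes. Of the remaining members, krt15 (ENSDARG00000036840), whose mammalian namesake marks basal keratinocytes, had 110 CPM in each WT library, 80.7 and 91.5 in normal, and 71.6 and 75.8 in CDT. Its log2 fold change was -0.50 (SE 0.09) in CDT, and in normal it was -0.28 (SE 0.09), where it turned to 0.17 with library size alone. The gene krt17 (ENSDARG00000094041), named after a mammalian keratin of skin appendages and wounded skin, had 308 and 352 CPM in WT, 253 and 232 in normal, and 208 and 221 in CDT. Its log2 fold changes of -0.55 in CDT and -0.37 in normal became -0.09 and 0.08 with library size alone. Thus neither krt15 nor krt17 had a robust direction against WT.

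Both krt97 and krt1-19d were lower under all 4 scalings in normal but not in CDT. For krt97 (ENSDARG00000000212) the levels were 762 and 804 CPM in WT, 491 and 462 in normal, and 513 and 522 in CDT, with log2 fold changes of -0.52 (SE 0.08) in CDT and -0.64 (SE 0.08) in normal. The low krt1-19d (ENSDARG00000023082) had 26.4 and 24.1 CPM in WT, 13.9 in each normal library, and 13.9 and 15.9 in CDT, with log2 fold changes of -0.69 (SE 0.13) and -0.79 (SE 0.13). This split does not show a difference between the mutant groups. Neither gene was called between CDT and normal by edgeR (adjusted p = 0.663 for krt97 and 0.872 for krt1-19d), which with 2 libraries per group does not exclude a difference. The gene listed as KRT222 (ENSDARG00000071518) had 40.5 and 45.8 CPM in WT, 33.7 and 34.2 in normal, and 35.8 and 37.0 in CDT. Its call in normal (-0.27, SE 0.10, adjusted p = 0.0351) was lost under DESeq2 and upper quartile scaling and turned to 0.18 with library size alone. Neither krt94 nor krt1-c5 was called under TMM in either comparison, with log2 fold changes between -0.31 and 0.15, whereas library size alone called krt1-c5 higher in CDT (0.60) and normal (0.51).

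No member was called between the tail forms of the mutants. Between CDT and normal 0 of 20 members were called by edgeR, where 0.952% of all genes tested were called. In 3 members there was an unadjusted p under 0.05 (krt92, krt15 and krt17). The share of all genes at such a p is not given, here or for the lists below. Such counts are therefore not a result about these genes. DESeq2 also called 0. The log2 fold changes of the 20 members lay between -0.34 and 0.14, with SE from 0.07 to 0.16, and their median was -0.02. The lowest value was that of krt92, at -0.34 (SE 0.10, adjusted p = 0.0870), with both CDT libraries below both normal libraries. It was called without CDT replicate 2 (-0.42, adjusted p = 0.0331). In krt15 and krt17, too, both CDT libraries lay below both normal libraries, with log2 fold changes of -0.22 (SE 0.09, adjusted p = 0.313) and -0.18 (SE 0.09, adjusted p = 0.468). In krt1-19d, krt18b, KRT222, krt8 and krt97 both CDT libraries lay above both normal libraries, with log2 fold changes of 0.10 to 0.14 and no call. The share of all genes separated in this way was not counted. With 2 libraries per group such a separation can arise without a difference, so it is not a result about the members. For krt4 the difference was 0.01 (SE 0.07), and its sign changed with the scaling.

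Many periderm genes other than keratins were also lower at 2 dpf under TMM, as were most abundant genes. The summed level of 22 periderm genes other than keratins was 12887 and 13620 CPM in WT and 8125 to 8724 in the 4 mutant libraries, with 12 genes lower and 1 higher in CDT and 14 lower and 1 higher in normal, where 20.4% of all genes tested were lower in each comparison. Library size alone gave 6 lower and 8 higher in CDT and 7 lower and 6 higher in normal. Of the genes of at least 100 CPM, 67.2% in CDT and 64.5% in normal were lower under TMM. Under all 4 scalings 27.0% and 29.3% of them were lower. Close to these last shares, 6 periderm genes were lower in CDT and 7 in normal under all 4 scalings, with 1 higher in each. They included s100a11, an S100 relative of the ictacalcins, which fell by 1.32 and 1.35 on the log2 scale in CDT and normal, agr1, which fell by 1.03 and 0.94, and anxa1c, an annexin, which fell by 1.13 in CDT. The cell adhesion gene epcam was lower in normal (-1.03) and was higher in CDT than in normal (0.41, SE 0.08, adjusted p = 0.00377), whereas anxa1c was lower in CDT than in normal (-0.49, SE 0.09, adjusted p = 0.000423).

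Summed levels of markers of other tissues were lower too under TMM. The 7 muscle genes summed to 41332 and 44855 CPM in WT against 21027 to 23685 in the mutants at 2 dpf, with 5 lower and 2 higher in each mutant group. The 9 gut and liver genes summed to 19321 and 21068 CPM against 10335 to 11239, with 7 of 8 tested lower in each. Most of this sum was apoa2, at 13941 and 15290 CPM in WT and 6566 to 7625 in the mutants. The sum thus mainly follows apoa2 and is no measure of the amount of gut and liver RNA at 2 dpf. The 7 hatching gland genes summed to 2562 and 2708 CPM against 1289 to 1412, with 5 lower in CDT and 6 in normal, among them the hatching enzyme genes he1.1 (-1.09 and -1.24) and he1.2 (-1.07 and -1.15). No gene of the muscle, gut and liver or hatching gland lists was at or below 3 counts in every library. Of all genes tested, 20.4% were lower in each group under TMM, and 4.62% in CDT and 5.00% in normal under all 4 scalings. For genes of at least 100 CPM these shares were 67.2% in CDT and 64.5% in normal under TMM. Under all 4 scalings they were 27.0% and 29.3%. Under all 4 scalings, 4 muscle, 5 gut and liver and 4 hatching gland genes were lower in CDT, and 2, 5 and 3 in normal. In the muscle list, myhz1.1 and myhz2 were higher under all 4 scalings in both groups, as many as were lower in normal. The falls of the surface keratins thus came together with falls in many but not all genes of these lists. The part of these tissues in the result was not tested. Of 7 notochord genes, 5 were lower in CDT under TMM, where library size alone gave 4 higher and 1 lower, and in normal 3 were lower and 2 higher, where it gave 5 higher and 1 lower. Under all 4 scalings only matn1 was lower in each group, and col8a1a was higher in normal. Levels of matn1 were low, at 3.45 and 4.50 CPM in WT and 0.18 to 0.57 in the mutants. In WT at 5 dpf they were 427 and 466 CPM. This gene alone is thus no measure of the notochord at 2 dpf. Of 5 heat shock genes 4 were lower in each group, of which 0 in CDT and 1 in normal were lower under all 4 scalings. Of 12 clock output genes 7 were higher in CDT and 6 in normal, of which 5 in each were higher under all 4 scalings. Of all genes tested, 20.0% in CDT and 19.2% in normal were higher under TMM, and 12.1% and 12.2% under all 4 scalings.

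Several genes that anchor keratin filaments were higher in the mutants at 2 dpf. Of 18 genes of desmosomes, hemidesmosomes and plakins tested, 8 were higher and 2 lower in CDT and 8 were higher and 4 lower in normal, where 20.0% and 19.2% of all genes tested were higher. Library size alone, which shifts all genes up, gave 15 higher in CDT and 13 in normal and 0 lower in either. The same 8 genes were higher under all 4 scalings in both groups, namely col17a1a, col17a1b, itga6b, itgb4, lama5, macf1a, pleca and plecb, most of which encode parts of hemidesmosomes and the basement membrane or plakins. Of all genes tested, 12.1% in CDT and 12.2% in normal were higher under all 4 scalings. The plectin gene pleca, which links keratin filaments to hemidesmosomes, had 45.1 and 44.6 CPM in WT, 112 and 106 in normal, and 122 and 109 in CDT, with log2 fold changes of 1.44 (SE 0.09) in CDT and 1.35 (SE 0.09) in normal. Its copy plecb rose by 1.61 (SE 0.11) and 1.47 (SE 0.11), and col17a1a, a hemidesmosome collagen, by 1.35 (SE 0.10) and 1.31 (SE 0.10). Between CDT and normal 0 of the 18 were called by edgeR or DESeq2, and 5 had an unadjusted p under 0.05 in edgeR.

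Of all genes tested at 2 dpf, 12.1% in CDT and 12.2% in normal were higher under all 4 scalings. Under TMM, 20.0% were higher and 20.4% lower in CDT, and 19.2% and 20.4% in normal. Among the 15 epidermal transcription factors tested, 3 were higher and 3 lower in each mutant group, close to these TMM shares. With library size alone 0 of the 15 were lower. Of these, tfap2c (0.60 and 0.46) and tfap2a (0.32 in each) were higher in CDT and normal under all 4 scalings. Of 11 fin fold matrix genes, 4 were higher in each group and 1 was lower in normal. The Fraser complex gene fras1 (0.99 and 1.24), the hyaluronan link gene hapln1a (0.32 and 0.53) and and2, an actinotrichia gene, were higher under all 4 scalings in both groups. Of 13 intermediate filament genes other than keratins, 2 were higher in CDT, and 5 were higher and 1 lower in normal. The lens filament genes bfsp1 (1.80 and 1.67) and bfsp2 (0.60 and 0.45) were higher in both. Of 10 ionocyte genes, 4 were higher and 1 lower in CDT and 2 were higher and 1 lower in normal. With library size alone, 0 genes of the fin fold, other filament and ionocyte lists were lower in either group.

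At 5 dpf 4 members were called between the genotypes. Of 24 members tested, krt91 and krt17 were higher and krt92 and cyt1l were lower in the mutants, where 1.28% of all genes tested were higher and 2.56% lower. Of the genes of at least 100 CPM, 2.16% were higher and 6.88% lower. Library size alone gave 4 members higher (also krt5 and cyt1) and 2 lower. The median of the members was -0.05 and that of all genes 0.00. Levels of krt92 were 864 and 883 CPM in WT and 594 and 582 in the mutants, which is -0.57 on the log2 scale (SE 0.09, adjusted p = 0.00273) that was called in every fit with a library left out and under all 4 scalings. For cyt1l the levels were 3743 and 3236 CPM in WT and 2519 and 2778 in the mutants (-0.40, SE 0.10, adjusted p = 0.0373). Its call was lost without mutant replicate 1 (adjusted p = 0.366), mutant replicate 2 (0.176) or WT replicate 1 (0.0531). The level of krt91 was 4933 and 4720 CPM in WT and 6086 and 6580 in the mutants (0.39, SE 0.09, adjusted p = 0.0221), a call lost without mutant replicate 1 (0.144) or mutant replicate 2 (0.472).

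The rise of krt17 rested on the WT libraries, which differed from each other. They had 1079 and 703 CPM, against 1318 and 1291 in the mutants, and the log2 change was 0.55 (SE 0.15, adjusted p = 0.0487). It was 0.89 without WT replicate 1 and 0.28 without WT replicate 2 (adjusted p = 0.0801), and the call was lost with DESeq2 (0.539) and with a minimum of 10 counts in every library (0.0534). The skin keratin krt5 had 5759 and 6361 CPM in WT and 7289 and 7805 in the mutants, which did not overlap (0.32, SE 0.09, adjusted p = 0.0678). It was called with library size alone, without a filter on low counts, in a fit of all 10 libraries and without either WT library. Without them its log2 fold change was 0.24 (WT replicate 1 left out) and 0.39 (WT replicate 2 left out). The surface keratin krt4, lower at 2 dpf, had 18399 and 16771 CPM in WT and 18192 and 18523 in the mutants (0.06, SE 0.08, adjusted p = 0.783). The other members had log2 fold changes between -1.09, for krt98 at 0.97 to 2.84 CPM, and 0.20, and none of them was called in this fit.

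Within libraries at 5 dpf, cyt1l gave 60.7 and 57.5 counts per 100 counts of cyt1 in WT and 39.5 and 40.7 in the mutants. The gene krt92 gave 17.5 and 18.7 counts per 100 counts of krt91 in WT and 9.77 and 8.84 in the mutants. At 2 dpf this last ratio was 7.0 and 7.7 in WT, 2.88 and 2.94 in normal and 1.88 and 2.40 in CDT. Both ratios were thus below WT in every mutant library at both ages. These pairs were chosen after their values were seen, so the ratios restate the differences of single members above and carry no test.

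**Figure D3:**
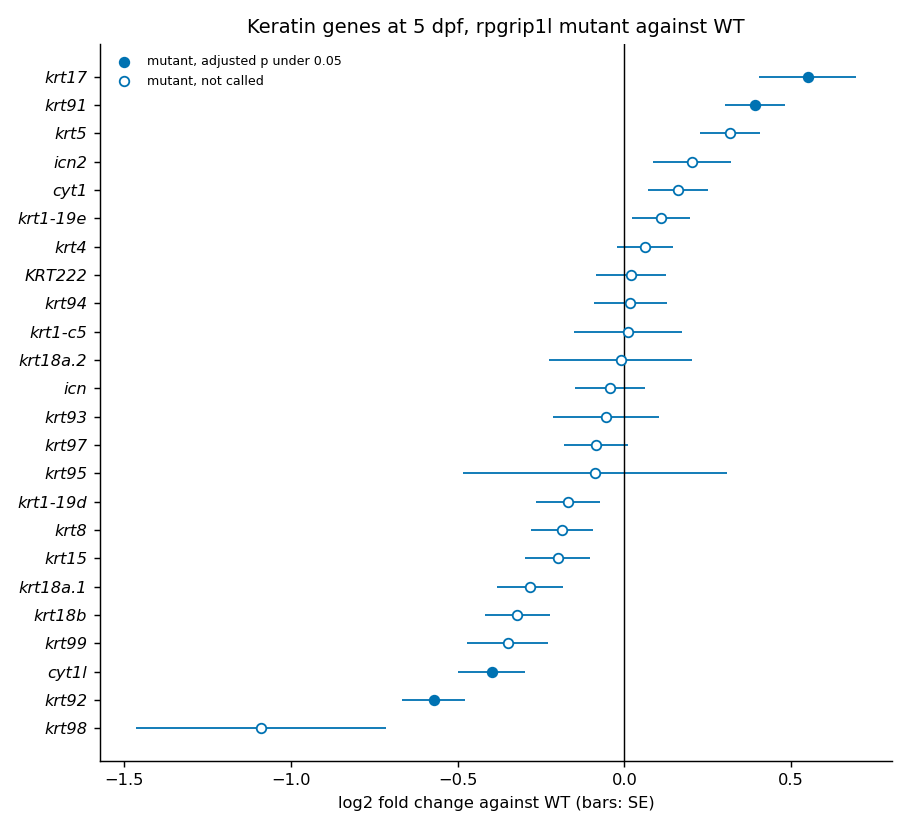
Log2 fold change of the 24 members between rpgrip1l-/- and WT at 5 dpf, with bars of 1 SE and filled points for an adjusted p under 0.05. The 4 filled points are krt17 and krt91 to the right of 0 and cyt1l and krt92 to the left, and krt5 stands next to them at 0.32 without a call.

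In the other lists at 5 dpf, counts are to be read against the 1.28% of all genes higher and 2.56% lower. For genes of at least 100 CPM these shares were 2.16% and 6.88%. Under all 4 scalings, 0.683% of all genes tested were higher and 1.14% lower, and 1.82% and 3.40% of the genes of at least 100 CPM. Of 22 periderm genes 4 were lower, among them s100a11 (-1.46, SE 0.19, adjusted p = 0.000530) and anxa1c (-0.64, SE 0.13, adjusted p = 0.0128), and 0 were higher. Only s100a11 and anxa1c were lower under all 4 scalings, and library size alone gave 2 periderm genes lower and 2 higher. Of 16 epidermal transcription factors 4 were higher and 0 lower. They included klf4, at 1.5 and 1.2 CPM in WT and 8.03 and 4.91 in the mutants (2.25, SE 0.32, adjusted p = 0.000918), elf3 (0.76) and tfap2c (0.56). Of 18 desmosome, hemidesmosome and plakin genes, lama5 was higher (0.48) and 3 were lower, among them the desmosomal cadherin gene dsc2l (-0.58) and the envoplakin gene evpla (-0.53). Of these, only the calls of lama5 and dsc2l held under all 4 scalings. Of 11 fin fold genes 1 was higher by edgeR, fbln1 (0.48), whereas DESeq2 called 0. Of 13 other intermediate filament genes 0 were called by edgeR or DESeq2, with 5 at an unadjusted p under 0.05. Of 10 ionocyte genes 1 was lower, trpv6 (-2.03). Of 5 hatching gland and 6 heat shock genes 0 were called by edgeR or DESeq2, with 1 of each at an unadjusted p under 0.05. Of 7 muscle genes 3 were lower, of 7 notochord genes 2, of 9 gut and liver genes 3 and of 12 clock output genes 3, with none higher. Under all 4 scalings these counts were 3, 1, 2 and 3. The summed muscle level was 100878 and 83824 CPM in WT and 72056 and 72565 in the mutants, and the part of these markers in the keratin differences was not tested.

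In WT, keratin levels shifted between 2 and 5 dpf in both directions. Of 24 members 13 were higher at 5 dpf and 7 lower, where 31.3% of all genes tested were higher and 29.5% lower, and all 20 calls held under the 4 scalings, where 27.8% of all genes tested were higher and 25.0% lower. Of the genes of at least 100 CPM, 30.2% were higher and 56.8% lower under TMM, and 29.9% and 52.2% under all 4 scalings. The share of members lower, 29.2%, was close to that of all genes and is not a result about the members as such. Among the members, the surface keratins, krt99 and the ictacalcins fell. The log2 fold changes were -1.56 (SE 0.08) for krt4, -2.04 (SE 0.09) for cyt1l, -1.29 (SE 0.08) for cyt1, -1.51 (SE 0.12) for krt99, -1.39 (SE 0.10) for icn and -2.50 (SE 0.11) for icn2, and krt18b fell by 0.38. Rising members included krt5, krt1-19e and krt15. The ages differ in more than age if the libraries were prepared apart, which the labels do not say and which cannot be told apart here.

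The largest rises among members of at least 10 CPM in WT at both ages were those of krt1-19d and krt15. From 26.4 and 24.1 CPM at 2 dpf, krt1-19d reached 308 and 310 at 5 dpf, a 12.2-fold rise. From 110 CPM in each library, krt15 reached 1320 and 1190, an 11.4-fold rise. The gene krt92 rose 7.99-fold, krt94 4.62-fold, krt91 3.24-fold, krt17 2.7-fold, krt5 2.05-fold and krt1-19e 1.95-fold. Levels of krt1-19e reached 5866 and 5505 CPM and those of krt97 1333 and 1223. Among low members, krt18a.2 rose from 0.86 and 0.19 CPM to 8.53 and 7.38. Some members were at or below 3 counts in each WT library at 2 dpf. With 3 counts per library as the limit, krt93 was at least 40.7-fold higher at 5 dpf, krt98 at least 9.90-fold and krt95 at least 5.99-fold. Such limits cover counting error only. The 4 members without a call were krt8, krt18a.1, KRT222 and krt1-c5, with log2 fold changes between -0.17 and 0.18.

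**Figure D4:**
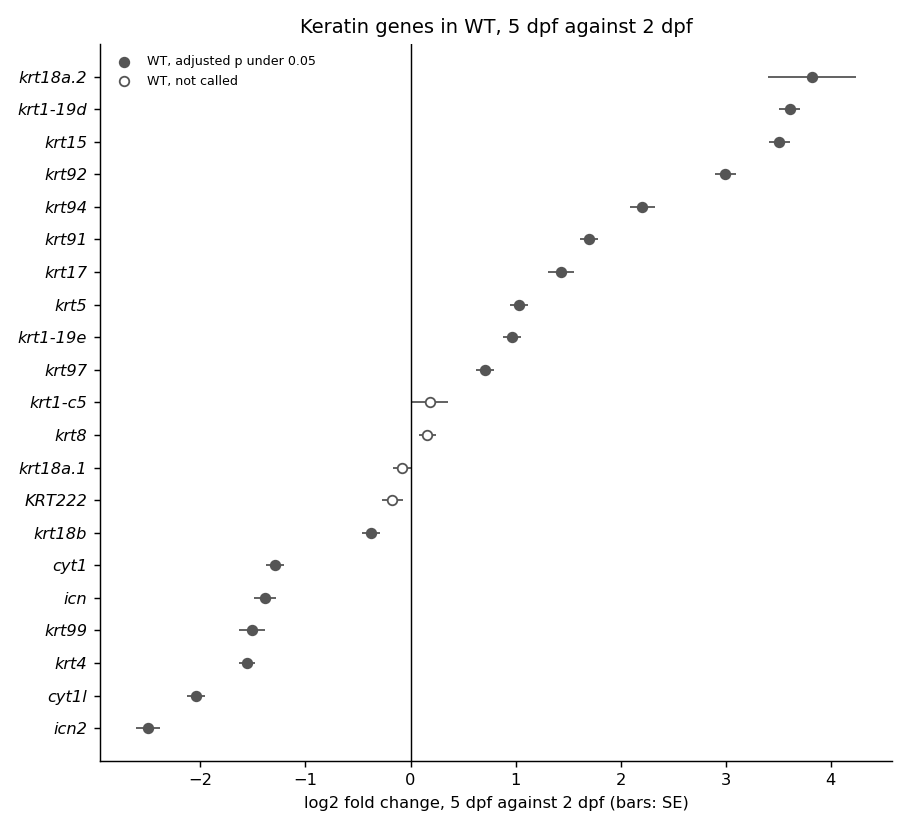
Log2 fold change of 21 members in WT, 5 dpf against 2 dpf, with bars of 1 SE and filled points for an adjusted p under 0.05. The members krt93, krt95 and krt98, at or below 3 counts per WT library at 2 dpf, are left out, and the points run from -2.50 for icn2 to 3.83 for krt18a.2.

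The members lie in groups of neighbours. In the RefSeq annotation of GRCz12tu, which is not the build of the counts and was used for gene order only, 7 members follow each other on chromosome 19 without another protein-coding gene between them, in the order krt1-19d, krt1-19e, krt92, cyt1l, cyt1, krt17 and krt91. On chromosome 11 another 5 do so (krt93, krt94, krt98, krt15 and krt99). The genes krt5, krt8, krt18a.1 and krt18a.2 are neighbours on chromosome 23, and icn and icn2 on chromosome 16. Neighbours shared a direction in part. The pair icn and icn2 fell together at 2 dpf and with age. On chromosome 19, 6 of the 7 were called lower in CDT under TMM, while krt91, at the end of the row, was higher. Of the 6, only krt92, cyt1l and cyt1 were lower under all 4 scalings. Under TMM, 20.4% of all genes tested and 67.2% of those of at least 100 CPM were lower in CDT. At 5 dpf krt92 and cyt1l were lower and krt17 and krt91 higher. With age in WT, cyt1 and cyt1l fell while the other 5 of the row rose. On chromosome 11, krt99 fell with age while the other 4 rose.

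**Figure D5:**
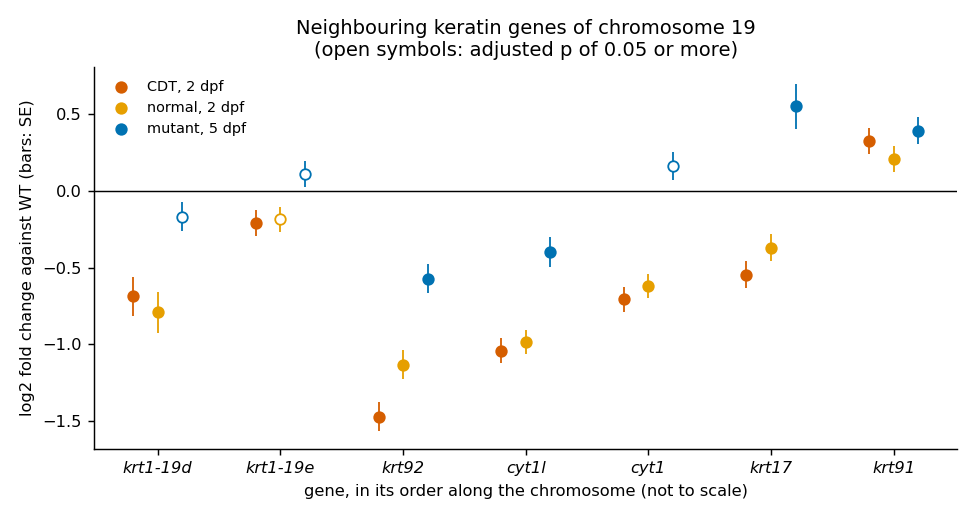
Log2 fold change against WT with bars of 1 SE for the 7 neighbouring keratin genes of chromosome 19, placed in their order and not to scale, for CDT and normal at 2 dpf and the mutants at 5 dpf. Filled points have an adjusted p under 0.05. The points of krt92 and cyt1l lie below 0 in all 3 comparisons and those of krt91 above 0, between 0.21 and 0.39.

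For part of the members the difference from WT changed between the ages, as it did under TMM for most genes of at least 100 CPM. An interaction term compared the genotype effect at 5 dpf with the mean effect of CDT and normal at 2 dpf. It was above 0 for 12 of 24 members and below 0 for 0 by edgeR, where 14.7% of all genes tested were above and 8.74% below, and 61.2% of the genes of at least 100 CPM were above. At an unadjusted p under 0.05 no member was below 0. DESeq2 also called 0 below 0, and library size alone called 1, krt8. Under all 4 scalings, 8 members were called above 0, where 2.95% of all genes tested and 19% of those of at least 100 CPM were, namely cyt1, cyt1l, icn, icn2, krt17, krt4, krt92 and krt99. For krt4 the interaction was 0.79 (SE 0.10, adjusted p = 2.71e-06), for cyt1 0.90 (SE 0.11, adjusted p = 1.38e-06) and for krt99 1.15 (SE 0.17, adjusted p = 2.30e-05). For krt17, lower under TMM at 2 dpf and higher at 5 dpf, it was 1.08 (SE 0.16, adjusted p = 2.87e-05). The tail form of the 5 dpf larvae is not known, so this is a comparison of ages over all mutants sampled.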

How the data were processed

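Pools of 30 to 35 whole embryos gave 10 libraries, 2 for each of 5 groups, read as pairs of 150 bp. The authors used Trim Galore 0.4.4 for trimming, STAR 2.7.3a for alignment (GRCz11) and HTSeq 0.12.3 with default settings for counting. The deposited values are raw counts per gene. Reads on several places (3.20% to 6.31%) or on more than 1 gene (0.455% to 0.545%) were not counted, so close copies can lose reads. Of the reads, 42.5% to 44.3% fell on genes. The 5 counter rows that name no gene, which hold the rest, stayed out of library sizes and tests. Intervals and limits from counts cover counting error only.

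Symbols came from a table that names 28988 of 32057 identifiers. Tests used edgeR 4.0.16 in R 4.3.3 (TMM, filter on low counts by group, quasi-likelihood, Benjamini-Hochberg over all genes). The 6 libraries at 2 dpf were fitted together (19636 genes), the 4 at 5 dpf together (20071), and all 10 for the age comparison and the interaction (21016). The script was tested on simulated data. Alternatives were DESeq2 1.42.0, upper quartile and library size scaling, other filters on low counts, the replicate number as a block, other sets of libraries fitted, and each library left out, where a lone library was assumed to vary like the other groups. Calls under all 4 scalings and counts without icn and icn2 or with krt96 were added after seeing the data.

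Named members were those called in a comparison within an age or in the interaction with a mean of at least 1 CPM, the 8 highest, the 3 largest rises and falls with age, and the markers of skin layers. From each list of other genes, at most 3 called genes per comparison with the smallest adjusted p were named, and genes named beside them as called under all 4 scalings were chosen after their values were seen. Members and lists were chosen with earlier results of these data known. A list counts only the names that matched a symbol. Type I and type II members were not split by protein sequence.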

Additional observations from a re-analysis of the deposited data

Results flagged for a closer look

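For 12 members the genotype effect differed between the ages by the interaction term (edgeR's quasi-likelihood test, adjusted p under 0.05). The term was above 0 by this test in 14.7% of all genes and in 61.2% of the genes of at least 100 CPM, so 12 of 24 is below the share of abundant genes and is not a result about the members as such. On the log2 scale, the effect at 5 dpf less that at 2 dpf was 0.90 for cyt1, 0.69 for cyt1l, 0.79 for krt4, 0.88 for icn, 1.03 for icn2, 1.15 for krt99 and 0.81 for krt92. It was 1.08 for krt17, 0.64 for krt1-19d, 0.57 for krt97, 0.39 for krt5 and 0.38 for krt1-19e. The last 4 of these were not called, or turned in sign, with library size alone. The call of krt1-19e was also lost without WT replicate 2 at 2 dpf (adjusted p = 0.0846), and that of krt5 without that library (0.0801) or mutant replicate 2 at 5 dpf (0.0637). The part of other tissues in these differences was not tested. Groups of 2 libraries are too small to look for a library that stands apart.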

How the results depend on the processing

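Among 983 values of 66 single-gene differences under other settings, 922 kept their direction and side of the threshold, 44 lost and 7 gained a call, and 10 changed sign. All 10 changes of sign came with library size alone: in CDT against WT krt1-19e 0.24, krt18a.1 0.10 and krt18b 0.071, in normal against WT krt15 0.17, krt17 0.082, krt18a.1 0.12, KRT222 0.18 and krt8 0.15, and in the interaction krt1-19e -0.039 and krt5 -0.035. By construction that setting shifts all genes together. The number of members called in CDT against WT (15) became 8 when a call under all 4 scalings was required, and in normal against WT (16) it became 9. With each library left out, it ranged from 13 to 16 and from 11 to 17, at 5 dpf from 2 to 4, with age from 20 to 20, in the interaction from 10 to 13, and in CDT against normal from 0 to 1. Replicate numbers did not pair the libraries, with correlations of their deviations between -0.05 and 0.03. The replicate block gave 16, 17, 4, 20 and 12 calls in the same order as above, and 1 in CDT against normal, which was krt92. Divided by TMM-scaled sizes, the summed share of members was 9.39% in WT, 5.76% in normal and 5.72% in CDT at 2 dpf. At 5 dpf it was 5.09% in WT and 5.46% in the mutants. Without krt4, the share of unscaled gene counts was 3.48%, 3.13%, 3.08%, 2.96% and 3.46% in the same order of groups. Depth limits krt93, krt95 and krt98 at 2 dpf.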
